A study of Mus musculus with 4 samples.

Results

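The PAQR genes encode the progestin and adipoQ receptor family, multi-pass membrane proteins that include both adiponectin receptors, the membrane progestin receptors, Mmd and Mmd2. They were followed here in brown adipose tissue of mice lacking Tsku, the gene of the secreted proteoglycan tsukushi. The list named 10 genes, Mmd2 chosen by its measured difference between KO and WT and the others selected on their membership of the family, and the probe set with the highest mean was kept for each gene with a symbol of its own in the platform annotation. By that rule 9 of the 10 members were measured, of 22180 genes in all. Paqr3 has no probe set of its own and was left out. Paqr5, a further gene of the family, was measured too and is given beside the members.

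The samples were 2 from Tsku knockout (KO) mice and 2 from wild-type (WT) mice, all male, of strain C57BL/6, 4 months old and fed chow. The labels give neither the Tsku allele nor whether the deletion covers the whole body, and Tsku itself has no listed probe set, so the genotypes rest on the labels. They call the samples biological replicates without saying that each came from a separate mouse. Whether the spread between them is that between single mice is therefore not known. Each RNA was hybridised to 1 whole-transcript array, and a value is the normalized expression on the log2 scale, where a difference of 1 is a doubling. Medians of the 4 arrays lay between 0.56 and 0.58. A gene was taken as above background on an array where it exceeded the 95th percentile of 1400 probe sets of olfactory and vomeronasal receptors, which lay between 0.63 and 0.81. Of 12 measured brown adipocyte markers 10 were above background on all arrays, with Ucp1, the heat-producing uncoupling protein, at 9.38 or more on every array.

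Adiponectin is a hormone that fat cells secrete. Its receptors, encoded by Adipor1 and Adipor2, signal through the adaptor Appl1 to AMP-activated protein kinase and PPAR-alpha, and they carry a ceramidase activity that removes the lipid ceramide. The progestin receptors of the family bind progesterone at the membrane, apart from the nuclear progesterone receptor. Mmd was named for its rise as monocytes mature into macrophages, and Mmd2 is its close paralog. Both proteins have been reported at the Golgi apparatus, where they hold Ras, while the Golgi protein encoded by Paqr3 holds Raf and the SREBP escort protein Scap.

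Mmd2 and Mmd are paralogs of which the first had the widest difference of the family and the second a narrow one, so the 250 bases before a RefSeq start of each gene are shown (GRCm38.p6, written 5′ to 3′ on the gene's strand). The window of Mmd2 is chr5:142608753-142609002 on the minus strand and that of Mmd is chr11:90249226-90249475 on the plus strand. Both lie partly inside the span RefSeq gives the gene, since other transcripts start further upstream. Capitals mark matches on either strand to the 6 motifs searched, which were the GC box GGGCGG, the CCAAT box CCAAT, the TATA box TATAAA, the cAMP response half-site TGACG, the nuclear receptor half-site AGGTCA and the E-box CACGTG.
Mmd2: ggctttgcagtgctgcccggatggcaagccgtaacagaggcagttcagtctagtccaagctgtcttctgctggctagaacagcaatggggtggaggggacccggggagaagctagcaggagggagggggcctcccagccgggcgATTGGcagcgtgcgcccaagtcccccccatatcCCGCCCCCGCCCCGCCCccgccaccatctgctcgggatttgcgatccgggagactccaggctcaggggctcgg
Mmd: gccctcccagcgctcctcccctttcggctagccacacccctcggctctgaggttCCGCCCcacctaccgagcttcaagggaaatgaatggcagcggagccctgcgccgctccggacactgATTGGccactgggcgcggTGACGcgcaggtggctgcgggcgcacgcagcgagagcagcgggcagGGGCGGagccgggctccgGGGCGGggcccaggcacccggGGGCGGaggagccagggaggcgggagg
The Mmd2 window held 3 GC boxes and 1 CCAAT box, all read on the opposite strand, and the Mmd window 4 GC boxes, 1 CCAAT box and 1 cAMP response half-site. Of 32851 windows of the same length, 32.7% held a GC box, 33.8% a CCAAT box and 17.8% the cAMP half-site. Neither window held the TATA box (12.4% of all windows), the nuclear receptor half-site (14.0%) or the E-box (6.02%). G and C made up 67.2% of the Mmd2 window and 74.4% of the Mmd window, against a median of 52.4% over all windows. RefSeq had such a window for 9 of the 10 members, Paqr9 being the other.

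Mmd2 was higher in the KO. It read 3.35 and 3.21 on the KO arrays, against 1.65 and 1.82 on the WT arrays. The arrays of each genotype lay within 0.18 of each other, and the lowest KO value stood well above the highest WT value. The means were 3.28 ± 0.10 in the KO and 1.73 ± 0.13 in the WT (SD, n = 2 each), a log2 difference of 1.55 (SE 0.19) or 2.92-fold. All 4 values were above background, by 2.54 and 2.51 in the KO and by 1.01 and 1.05 in the WT, so the fold is not a bound. In the order of all 22180 genes from the most raised to the most lowered it stood at place 8, and 72 genes (0.325%) were higher by 1 or more. Because Mmd2 was put on the list for this difference, the values are a description. Differences of dim genes can be made smaller by this kind of normalization, which was not tested here.

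**Figure D1:**
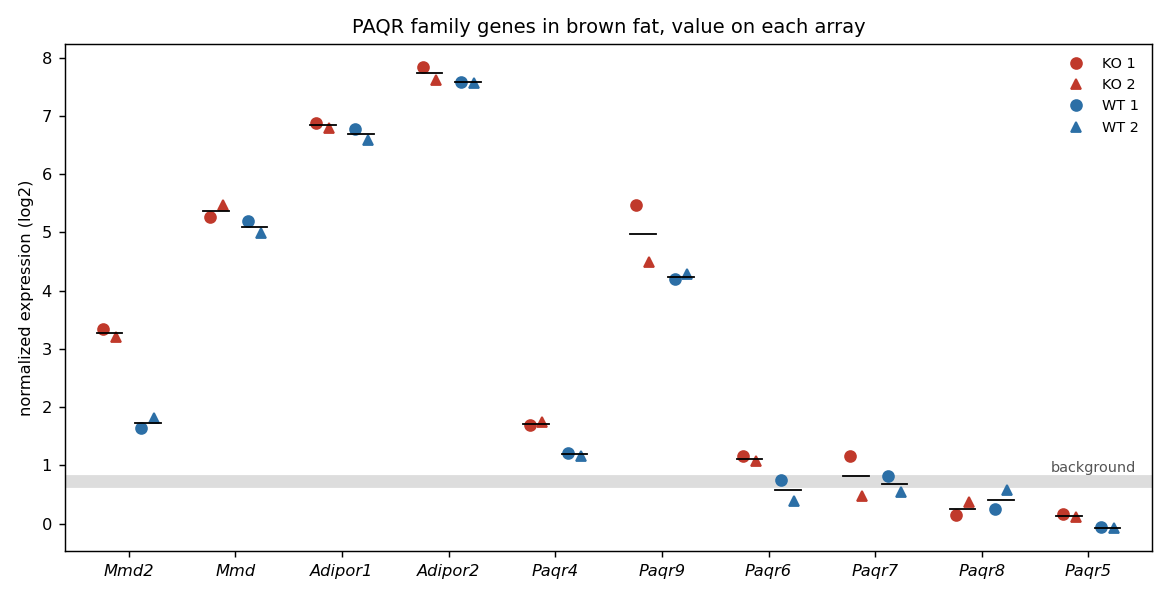
Normalized log2 expression (vertical axis) of the 9 measured members and Paqr5 on each array, with KO arrays in red and WT arrays in blue, circles for replicate 1 and triangles for replicate 2, black bars for genotype means, and a grey band for the background of the 4 arrays (0.63 to 0.81). Mmd2 is the gene whose red and blue points lie farthest apart (3.35 and 3.21 against 1.65 and 1.82), and values of different genes are not comparable, since each has its own probes.

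Mmd, the paralog, showed a much smaller difference. It read 5.26 and 5.48 on the KO arrays, against 5.20 and 4.98 on the WT arrays. Both KO values were above both WT values, but by only 0.06 between the nearest pair, while the arrays of 1 genotype differed by 0.22. The log2 difference was 0.27 (95% interval -0.21 to 0.76, limma adjusted p = 0.897), and 0.17 to 0.38 without single arrays. Acsl4 and Mboat7, which encode enzymes of arachidonate handling whose proteins have been reported to bind the MMD protein, gave unlike values. Mboat7, the lysophosphatidylinositol acyltransferase, read 3.27 and 3.15 in the KO, against 2.71 and 2.25 in the WT (log2 difference 0.73, 95% interval 0.18 to 1.28, limma adjusted p = 0.872). Acsl4, the acyl-CoA synthetase, differed by 0.06 (-0.38 to 0.50).

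The adiponectin receptors were well above background on all 4 arrays and close to equal in both genotypes. Adipor1 read 6.89 and 6.79 in the KO, against 6.78 and 6.59 in the WT. Adipor2 read 7.84 and 7.62 in the KO, against 7.59 and 7.57 in the WT. For both genes the KO values lay above the WT values by margins smaller than the gap between the KO arrays. The log2 difference was 0.15 for Adipor1 (95% interval -0.31 to 0.61) and 0.15 for Adipor2 (-0.31 to 0.62), each with a limma adjusted p of 0.930. Without single arrays they ran from 0.06 to 0.24 and from 0.04 to 0.26. These intervals leave room for differences from about -0.3 to about 0.6 on the log2 scale in either receptor.

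Paqr4, which has been reported to control ceramide levels in adipocytes, had a dim signal that was steady within each genotype. It read 1.69 and 1.74 on the KO arrays, against 1.22 and 1.16 on the WT arrays. The genotypes did not overlap, and arrays of 1 genotype differed by 0.05 and 0.06. The log2 difference was 0.53 (95% interval 0.09 to 0.97), or 1.44-fold, with an unadjusted p of 0.0266 and a limma adjusted p of 0.872, so it did not pass. A second probe set, which the annotation gives to both Pkmyt1 and Paqr4, read 0.36 and 0.97 in the KO, against 0.74 and 0.87 in the WT, and its log2 difference was -0.14.

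Among the progestin receptors Paqr9 had the clearest signal, and its difference came mostly from 1 array. Paqr9 read 5.47 and 4.49 on the KO arrays, against 4.20 and 4.28 on the WT arrays. Both KO values were above both WT values, the first by far and the second by 0.20 or more. The gap of 0.99 between the KO arrays was reached by 3.94% of the genes above background on all arrays. The log2 difference was 0.74 (95% interval -0.09 to 1.56, limma adjusted p = 0.872). It was 0.24 without KO replicate 1 and 1.23 without KO replicate 2. The RefSeq gene table lists Blnc1, the name of a noncoding RNA known from brown fat, as a synonym of Paqr9, and which transcript the probe set reads was not tested.

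Paqr6, the membrane progestin receptor delta, read 1.16 and 1.08 on the KO arrays, against 0.75 and 0.39 on the WT arrays. Both KO arrays and 1 of the 2 WT arrays were above background, and the genotypes did not overlap. The log2 difference was 0.55 (95% interval 0.04 to 1.05, unadjusted p = 0.0390, limma adjusted p = 0.872) and did not pass. Paqr7, the alpha receptor, read 1.16 and 0.47 in the KO, against 0.82 and 0.54 in the WT, and the genotypes overlapped. Its log2 difference of 0.13 (-0.55 to 0.81) turned to -0.21 without KO replicate 1. Paqr8, the beta receptor, and Paqr5, the gamma receptor, were at or below background on all 4 arrays. Paqr8 read 0.14 and 0.37 in the KO, against 0.25 and 0.58 in the WT. Paqr5 read 0.16 and 0.11 in the KO, against -0.06 and -0.07 in the WT. No fold is given for either, since neither genotype had a measurable level. The nuclear progesterone receptor gene Pgr was likewise below background on all arrays.

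The probe set that the annotation gives to both Paqr3 and Bmp2k was above background on 1 of the 4 arrays. It read 0.74 and 0.62 in the KO, against 0.95 and 0.41 in the WT. The values overlapped and their log2 difference was -0.003.

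**Figure D2:**
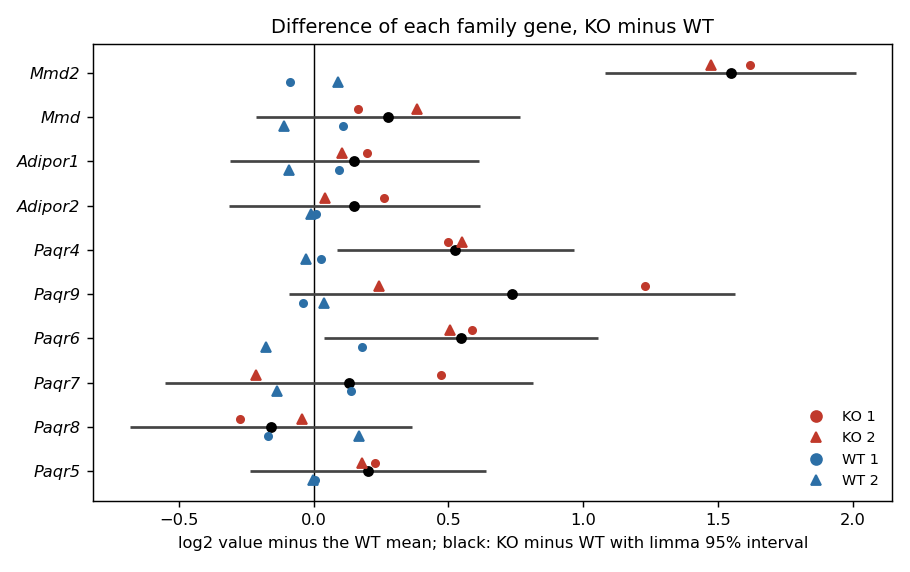
Values of each family gene relative to its WT mean (horizontal axis, log2), with KO arrays in red above the line, WT arrays in blue below it, and the KO minus WT difference in black with its 95% interval from limma. Mmd2 stands at 1.55 and Paqr9, the next, at 0.74 with its KO arrays 0.99 apart. Paqr8 and Paqr5 are plotted from values below background, so their positions give no measured difference.

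Across the family 8 of the 9 measured members had a higher mean in the KO, where 52.6% of all genes did. The other member was Paqr8, whose values were all below background. No member passed an adjusted p of 0.05, and neither did any other gene (0 of 22180 genes, 0% called). At an unadjusted p under 0.05 the same limma test had 3 members, Mmd2, Paqr4 and Paqr6, beside 5.56% of all genes. All 3 were higher in the KO, where 2.89% of all genes were higher and 2.67% lower. In 7 members both KO arrays were above both WT arrays, as in 19.4% of all genes. In 0 members both were below, as in 15.8% of all genes. The median log2 difference was 0.27 over the 9 members and 0.21 over the 8 members other than Mmd2, beside 0.02 over all genes. Against the WT mean the members' median was 0.47 on KO replicate 1 and 0.24 on KO replicate 2. As the family was proposed with these values known, the shares are a description and carry no test. For a single gene an exact permutation of 2 against 2 samples cannot give a two-sided p below 0.333.

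The genes whose values ran most like those of Mmd2 were sought by the smallest Euclidean distance between log2 values centred over the 4 arrays, among 11982 genes. These were the genes above background on at least 1 array, less predicted genes, olfactory and vomeronasal receptors, and genes of microRNAs or small nucleolar RNAs. The nearest was Gys2, a glycogen synthase, at a distance of 0.27, with 6.52 and 6.00 in the KO, against 4.62 and 4.84 in the WT. Next came Ugt3a2, a glycosyltransferase gene, at 0.31, with 1.19 and 0.96 in the KO, against -0.29 and -0.04 in the WT. Its WT arrays were both below background, so the KO level was at least 1.29-fold higher, and its distance and place, which rest on those WT values, are not firm. Angptl8, a secreted inhibitor of lipoprotein lipase that feeding induces, followed at 0.32, with 5.75 and 5.31 in the KO, against 3.78 and 4.29 in the WT. Hspb8, a small heat shock protein gene, lay at 0.37 and Pmvk, a kinase of the mevalonate pathway, at 0.42. Their log2 differences were 1.32 and 1.19, beside 1.53 for Gys2 and 1.49 for Angptl8. With 4 arrays, likeness to Mmd2 amounts largely to a difference between genotypes of similar size.

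**Figure D3:**
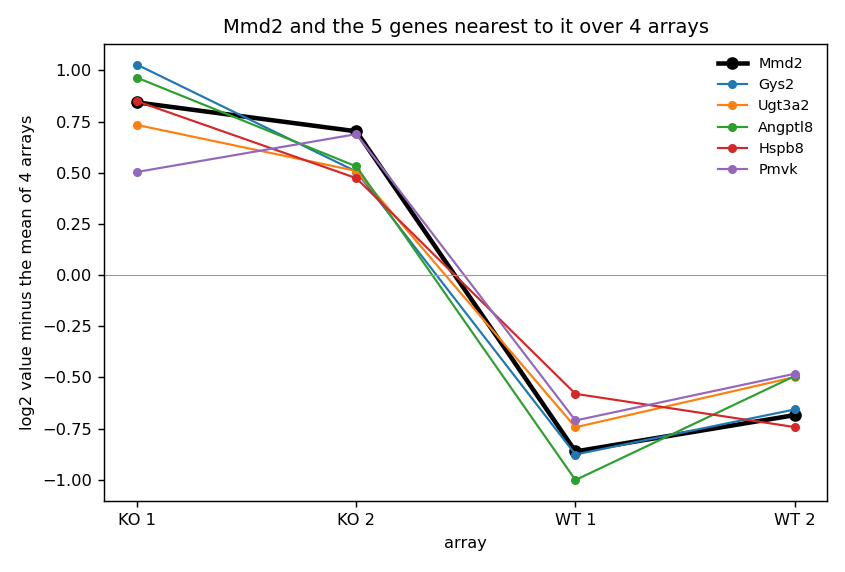
Log2 value minus the mean of the 4 arrays (vertical axis) on each array (horizontal axis) for Mmd2 in black and the 5 genes nearest to it in colour. All 6 lines are above 0 on both KO arrays and below 0 on both WT arrays, and lines join the arrays of a gene without implying an order.

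Of the genes around the receptors, the adiponectin side showed small differences in both directions. Adipoq, the adiponectin gene, read 6.32 and 6.28 in the KO, against 6.06 and 6.05 in the WT (log2 difference 0.25, 95% interval -0.19 to 0.69). Of 11 measured genes for adiponectin, its co-receptor, its handling and its C1q/TNF relatives, 6 were higher and 5 lower, with a median log2 difference of 0.12. None passed, and at an unadjusted p under 0.05 there were 1 higher and 1 lower, where 2.89% of all genes were higher and 2.67% lower. The higher one was Cdh13, encoding T-cadherin, which binds circulating adiponectin. It read 4.47 and 4.34 in the KO, against 4.01 and 3.66 in the WT, a log2 difference of 0.57 (limma adjusted p = 0.872). The lower one was C1qtnf2, which was below background on both KO arrays and at least 1.18-fold higher in the WT. C1qtnf1, another relative, differed by 0.36 (0.20 without KO replicate 1).

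Downstream of the receptors 18 genes of adaptor, kinase and target proteins had a median log2 difference of -0.01, with 8 higher and 10 lower and 0 past the limma test, either adjusted or at an unadjusted p under 0.05. Appl1 differed by -0.06. Prkaa1, the catalytic alpha-1 subunit of AMP-activated protein kinase, read 6.73 and 6.95 in the KO, against 7.21 and 7.25 in the WT, a log2 difference of -0.38 (95% interval -0.85 to 0.08). Camkk2, a kinase upstream of it, differed by -0.57 (-0.30 without KO replicate 2), and Irs1, an insulin receptor substrate, by 0.48 (0.31 without WT replicate 1 or KO replicate 2) with its brightest probe set and -0.30 with its most variable one.

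Ceramide genes gave no common direction. Of 15 measured genes of ceramide synthesis 8 were higher and 7 lower (median 0.02), with 0 at an adjusted p under 0.05 and 0 at an unadjusted p under 0.05 in limma. The list's 4 genes below background on all arrays were all among the higher, so their sign has no meaning. With a filter that kept genes brighter than the median gene, the list median was -0.25. The lowest p were those of Kdsr, a reductase of the pathway, with a log2 difference of -0.40, the ceramide synthase gene Cers5 (-0.53) and the regulator gene Ormdl3 (-0.57). The last 2 rested on single arrays. Cers5 was at -0.18 without KO replicate 1 and -0.87 without KO replicate 2, and Ormdl3 at -0.05 without WT replicate 2 and -1.08 without WT replicate 1. Of 18 genes of ceramide breakdown and conversion 9 were higher and 9 lower (median 0.04), and Sphk2, a sphingosine kinase, had an unadjusted limma p of 0.0334 with a log2 difference of 0.54. It read 3.50 and 3.61 in the KO, against 3.14 and 2.88 in the WT. No other of the 18 genes had an unadjusted limma p under 0.05, which 5.56% of all genes had. Sgpp1, a sphingosine-phosphate phosphatase, differed by 0.41 and Smpd2, a sphingomyelinase, by 0.41, or 0.12 without WT replicate 1 and 0.23 without KO replicate 1. Among 7 distant relatives of the PAQR proteins, the alkaline ceramidases and glycolipid-remodelling hydrolases of the same superfamily, 1 was higher and 6 lower (median -0.13). In all 7 of them the genotypes overlapped, Acer2, a ceramidase gene, with 3.82 and 4.55 in the KO, against 4.36 and 4.54 in the WT. Of the 6 lower ones 2 were below background on all arrays. Pgap3, the higher one, differed by 0.33 (0.11 without KO replicate 1), Tmem8b by -0.36 and Acer2 by -0.27, and without KO replicate 1 Tmem8b turned to 0.072 and Acer2 to 0.10.

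Of the 10 genes of progesterone binding and progestin signalling 6 were higher and 4 lower (median 0.05), again with 0 past the adjusted threshold and 0 at an unadjusted p under 0.05 in limma. The list's 2 genes below background on all arrays were both among the higher, so their sign has no meaning. With the filter at the median gene the list median was -0.05. Gnai1, an inhibitory G protein subunit, differed by -0.41 (95% interval -0.87 to 0.06) and Nenf, a relative of the progesterone-binding Pgrmc1, by -0.22 (-0.36 to -0.09 without single arrays). Pgrmc1 itself differed by 0.08. Gnal, a stimulatory subunit, was above background on 1 of the 4 arrays, a KO array.

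The Ras and SREBP lists, chosen for the Golgi partners of the family, held a few wider differences. Of 19 measured genes of the Ras and Raf cascade 12 were higher and 7 lower (median 0.04). Dusp4, a phosphatase that ERK signalling induces, read 4.99 and 5.29 in the KO, against 4.21 and 4.10 in the WT, a log2 difference of 0.98 (95% interval 0.49 to 1.48, unadjusted p = 0.00286, limma adjusted p = 0.872). It was the list's only gene at an unadjusted p under 0.05, where 5.56% of all genes were. Map2k2, a kinase that activates ERK, differed by 0.53 (0.30 without WT replicate 1) and Rras2 by -0.29 (-0.09 without WT replicate 2 and -0.12 without KO replicate 2). Of 9 measured genes of SREBP processing and response 8 were higher and 1 lower, with a median of 0.20 and 3 at an unadjusted p under 0.05, all higher. Over all genes 52.6% had a higher mean and 2.89% were higher at an unadjusted p under 0.05. Srebf1, the transcription factor gene of lipid synthesis, read 5.36 and 5.20 in the KO, against 4.50 and 4.77 in the WT (log2 difference 0.65, 95% interval 0.16 to 1.14). Srebf2, its counterpart for sterol synthesis, differed by 0.81 and Sqle, a sterol pathway enzyme, by 0.62. Srebf2 was at 0.41 without WT replicate 2 and 1.22 without WT replicate 1. Limma's adjusted p was 0.872 for each of the 3 genes.

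**Figure D4:**
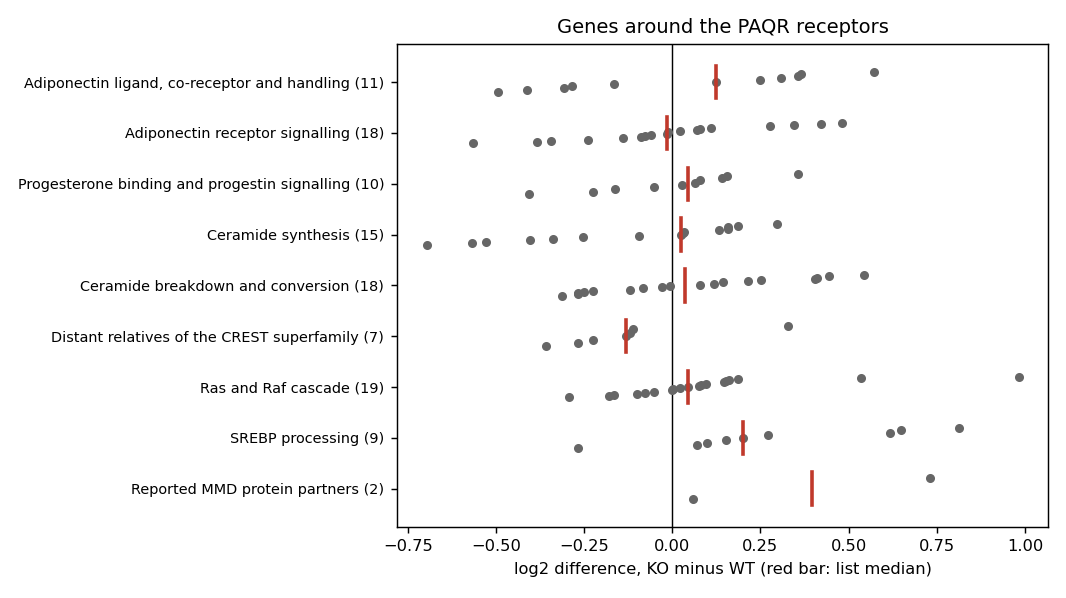
Log2 difference, KO minus WT (horizontal axis), of each measured gene in the lists around the receptors, with the number of genes in brackets and a red bar at each list's median. Medians lie between -0.13 and 0.20 for the lists of 7 or more genes, and the points farthest right are Dusp4 (0.98) and Srebf2 (0.81).

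Markers of other cell types also differed between the arrays, and in bulk tissue fewer cells of a type and less RNA per cell cannot be told apart. Macrophage markers were lower in the KO in 17 of 18 genes (median log2 difference -0.40). With each marker centred on its own 4-array mean, their median stood at -0.56 and 0.10 on the KO arrays, against 0.25 and 0.26 on the WT arrays. Their summed linear signal, in arbitrary units, was 187 and 337 in the KO, against 347 and 366 in the WT, and 1 of the 18, Clec4f, was at or below background throughout. Skeletal muscle markers were lower in all 18 genes (median -1.74), at -0.29 and -1.14 on the KO arrays, against 0.52 and 1.23 on the WT arrays. Their summed signal was 258 and 110.04 in the KO, against 361 and 545 in the WT.

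Liver markers were higher in 13 of 14 genes (median 0.42). Only 7 of the 14 were above background on all arrays, and Fgg was at or below it throughout. They stood at 0.58 and -0.17 on the KO arrays, against -0.09 and -0.34 on the WT arrays. The summed signals of the liver markers were 471 and 343 in the KO, against 328 and 378 in the WT. Most of each sum came from 1 gene, Cyp2e1, the brightest of the 14 on every array, with a log2 difference of 0.06. The sums therefore say little about the other liver markers. By the centred medians KO replicate 1 was the highest array for liver and brown adipocyte markers, and the lowest for macrophage and endothelial markers. Brown adipocyte markers were higher in 10 of 12 genes (median 0.36), at 0.38 and 0.12 on the KO arrays, against -0.10 and -0.32 on the WT arrays. Their summed signals were 2672 and 2757 in the KO, against 2277 and 2162 in the WT. Endothelial markers (median 0.04, 12 genes) and Schwann cell and nerve markers (median 0.02, 10 genes) differed less. Of the nerve markers Sox10, Th, Dbh and Prph were at or below background on all arrays. Between the KO arrays the list medians differed by 0.13 (Schwann cells and nerve) to 0.84 (skeletal muscle), and by 0.26 for brown adipocytes. The 2 KO values of Mmd2 differed by 0.14. The part of these cell types in the differences of Mmd2 and Paqr9 was not tested.

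**Figure D5:**
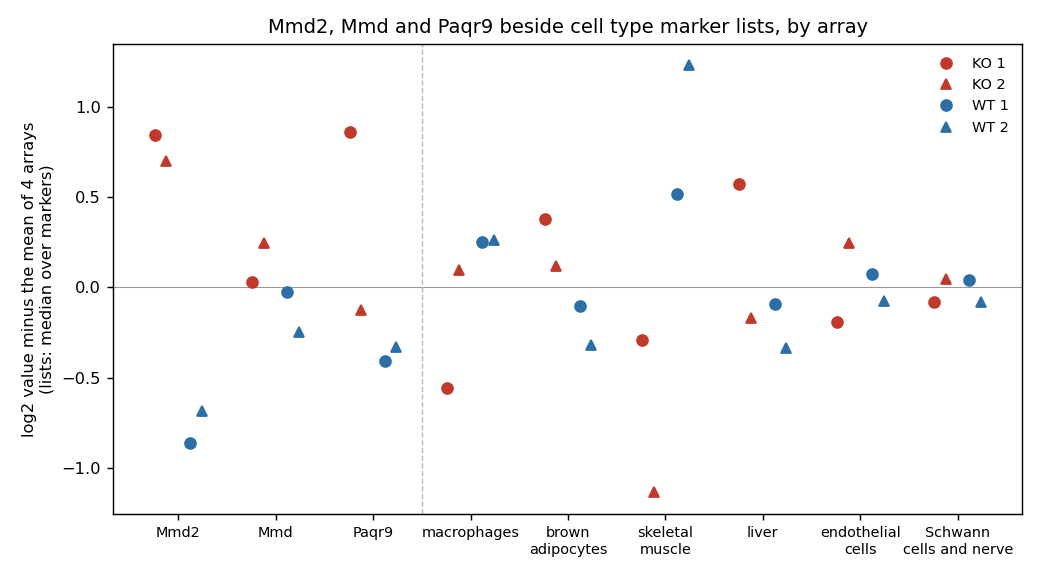
Log2 value minus the mean of the 4 arrays for Mmd2, Mmd and Paqr9 (left of the dashed line), and the median of that quantity over the markers of 6 cell types (right of it), with KO arrays in red and WT arrays in blue. On the KO arrays the medians were -0.56 and 0.10 for macrophage, -0.29 and -1.14 for muscle and 0.58 and -0.17 for liver markers. They were 0.38 and 0.12 for brown adipocyte, -0.19 and 0.25 for endothelial and -0.08 and 0.05 for nerve markers.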

How the data were processed

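Total RNA of brown adipose tissue, 400 ng a sample, was labelled with biotin for whole-transcript arrays, per the labels' protocols. The authors deposited normalized log2 values of 41345 probe sets for 4 arrays. Per the submitters' processing notes, oligo, RMA and limma were used, with no version or role given. The log base is taken as 2 from RMA. The values sit lower than RMA usually gives, for an unstated reason. Whether the shift is the same at all levels, so that it cancels in differences, was not tested. Probe sets with 1 gene symbol (23521) were used, those with several (1814) or none listed (16010) were not, and 23328 matched RefSeq's gene table (GRCm38.p6) by Entrez ID.

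The contrast of KO with WT was fitted to 22180 genes by lmFit and eBayes of limma 3.58.1, run in R 4.3.3, with no filter and no block, Benjamini-Hochberg adjusted over all genes (2 residual and 3.96 prior degrees of freedom). The threshold was an adjusted p of 0.05. Precision is limited by there being 4 arrays, and 95% intervals had a median half-width of 0.52. Where both arrays of 1 genotype were below background, the fold is a bound, taken from the other genotype's mean with each dim value raised to its array's background. The test was run on simulated data first.

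The members, lists and tests were chosen with earlier results of these data known. Beside the members and Paqr5, the rule for names took from each pathway list up to 3 genes above background with the smallest p, any gene past the threshold, and the 5 genes nearest to Mmd2. Adipoq, Appl1, Pgr and Pgrmc1, which are the ligand, adaptor and progesterone-binding genes, were named outside it. So were the markers Ucp1 and Cyp2e1 and the markers that were below background. On the superfamily list Tmem8 and Tmem8c are older names of Pgap6 and Mymk and were not counted again. Alternatives covered a replicate block, filters, the choice of probe set, normalization, variance models, array weights, the background level and leaving out each array.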

Additional observations from a re-analysis of the deposited data

How the results depend on the processing

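Under 16 alternatives the 9 members kept their direction and stayed short of the adjusted threshold in 140 of 143 values. The other 3 were reversals when 1 array was left out, where Paqr7 ran from -0.21 to 0.47 and Paqr8 from -0.33 to 0.0092. The Paqr8 values all lie below background, so its sign has no meaning. Mmd2 ran from 1.46 to 1.63 without single arrays and from 1.53 to 1.55 otherwise, with a limma adjusted p between 0.199 and 0.927. Paqr9 ran from 0.24 to 1.23 without single arrays, and the cause was not tested. Of 507 values of the 32 other named genes 4 were reversed. Irs1 was at -0.30 with the most variable probe set, and without single arrays Gnal, below background on 3 arrays, ran from -0.27 to 0.98, Tmem8b from -0.79 to 0.072 and Acer2 from -0.64 to 0.10. Of 56 list medians 16 moved by more than the spread between replicates. Genes past the threshold numbered 1 with the replicate block, with median centring and with a mean trend, and 0 to 15 without single arrays, 15 of them without WT replicate 1 and 2 without WT replicate 2. At an unadjusted p under 0.05 they numbered 713 with the filter at the median, which tests fewer genes, and 954 to 1621 without single arrays. Samples of the same number are not shown to be paired: the deviations of KO and WT replicate 1 from their genotype means had a correlation over genes of -0.07. The replicate block gave Mmd2 a log2 difference of 1.55 and changed no member's call. With the background at the 90th or 99th percentile, 7 or 5 members were above it on all arrays in place of 6.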
